A study of Homo sapiens with 9 samples.

Results

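Genes that mark bile duct cells and liver progenitors were examined in RNA-seq libraries of Huh7 cells, an established human hepatocellular carcinoma line, after siRNA against the Hippo kinase LATS1 or LATS2. The 9 members were listed by gene name and Entrez number, by a rule that uses no values, although earlier results of these data were known: the transcription factors SOX9 (6662) and SOX4 (6659), the keratins KRT19 (3880) and KRT7 (3855), the surface proteins EPCAM (4072) and PROM1 (8842), the secreted protein SPP1 (6696), and the fetal liver proteins GPC3 (2719) and DLK1 (8788). Of these, 8 were found among the 20575 genes of the files, and DLK1 was not analysed here. Levels are given as CPM, the reads of a gene relative to all counted reads of its library. Of the 8, 7 reached 1 CPM in 3 or more libraries and were tested in a fit over all 12901 genes that did so, whereas KRT7 lay below that level.

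In the developing liver, bipotent hepatoblasts give rise to hepatocytes and to cholangiocytes, the cells that line the bile ducts. SOX9, SOX4, KRT19, KRT7 and EPCAM mark the ductal lineage, and several of these genes return in reactive ductular cells of injured liver and in hepatocellular carcinomas with progenitor features. LATS1 and LATS2 phosphorylate and restrain the coactivators YAP and TAZ, which act through TEAD factors, and Hippo signaling is known to influence the choice between hepatocyte and biliary fate in mouse liver.

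The series held 3 groups of 3 samples, Huh7 cells transfected with siControl, siLATS1 or siLATS2 and harvested 48 h later. All 9 samples were labelled Huh7, although the design text speaks of different cell lines, and the labels name no drug, whereas the study's methods speak of sorafenib-treated cells. The study's methods name siRNA pools or sets of siRNAs, delivered by lipid transfection, and all cells came from 1 established line. The labels do not say whether the replicates were separate cultures, while the study's methods call them biological, and p-values measure the spread between these samples. In bulk RNA, fewer cells expressing a gene and less RNA per cell cannot be told apart.

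The siRNAs that the study lists for its siLATS1 pool are shown for their matches to LATS1 and to the members. The study's methods do not say whether the sequenced samples received this pool. They are written as sense strands, 5′ to 3′, and the capitals mark the 7 bases that lie opposite the guide's seed (guide bases 2 to 8).
siLATS1 pool siRNA 1: ggugaagucugUCUAGCAa
siLATS1 pool siRNA 2: uagcauggauuUCAGUAAu
siLATS1 pool siRNA 3: gguaguucgucUAUAUUAu
siLATS1 pool siRNA 4: gaaugguacugGACAAACu
Each of the 4 sequences matched the LATS1 transcript over its full length, and none of the 8 members held a full match. Matches to the seed bases alone occurred in the coding sequence of GPC3 for siRNAs 2 and 4 and in the 3′ UTR of SOX9 for siRNA 3. Such short matches were common, with 14.4%, 21.4%, 24.7% and 17.9% of 11693 transcripts holding the bases of siRNAs 1 to 4, and SPP1, KRT19, PROM1, EPCAM, SOX4 and KRT7 held none.

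The targeted gene was checked first. LATS1, after scaling by trimmed mean of M values (TMM), stood at 110, 55.2 and 62.9 CPM in siControl replicates 1, 2 and 3, at 27.1, 20.1 and 15.6 CPM in siLATS1 and at 54.7, 78.6 and 51.2 CPM in siLATS2. All 3 siLATS1 samples lay below the other 6, with a log2 fold change of -1.78 against siControl (limma, adjusted p = 0.126). LATS2 was not analysed here, so the LATS2 knockdown has no such check.

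Depth was 23500000 to 32200000 counted reads per library. siControl replicate 1 stood apart: across the tested genes its Pearson's r with the other siControl replicates was 0.859 and 0.866, against 0.959 to 0.995 for all other pairs within a group, and 4369 genes had no read in it against 3369 to 3804 elsewhere. Results that rest on it are therefore given with and without it. All 10 hepatocyte markers, among them ALB, AFP and HNF4A, exceeded 1 CPM in every library, whereas this was so for 2 of 6 fibroblast and stellate, 0 of 4 endothelial and 1 of 6 leukocyte markers. Their summed levels ran from 12400 to 23100 CPM for hepatocyte, 135 to 275 CPM for fibroblast and stellate, 0.683 to 2.77 CPM for endothelial and 20.3 to 30 CPM for leukocyte markers. The defining genes DCN, CDH5, VWF, KDR and CD3E stayed under 1 CPM in every library.

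Levels of different members were compared per kilobase of 1 reference transcript each (MANE Select, GRCh37). GPC3 was the most abundant, with a median of 304 CPM per kilobase over the 9 samples and a range of 236 to 406. KRT19 followed at 146 (9.01 to 197) and SPP1 at 139 (96.1 to 155), and these neighbours overlapped with each other but lay below every GPC3 value. SOX4 at 35.9 (31.4 to 56.2), EPCAM at 34.8 (27.3 to 52.3), PROM1 at 31.2 (20.5 to 46.6) and SOX9 at 28.2 (24.4 to 31.7) formed a lower band of overlapping ranges that did not reach SPP1. KRT7 closed the order at a median of 0. These 9 Huh7 samples thus held KRT19 reads at a level above those of SOX9 in 8 of 9 libraries on this scale, next to almost no KRT7 reads.

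**Figure D1:**
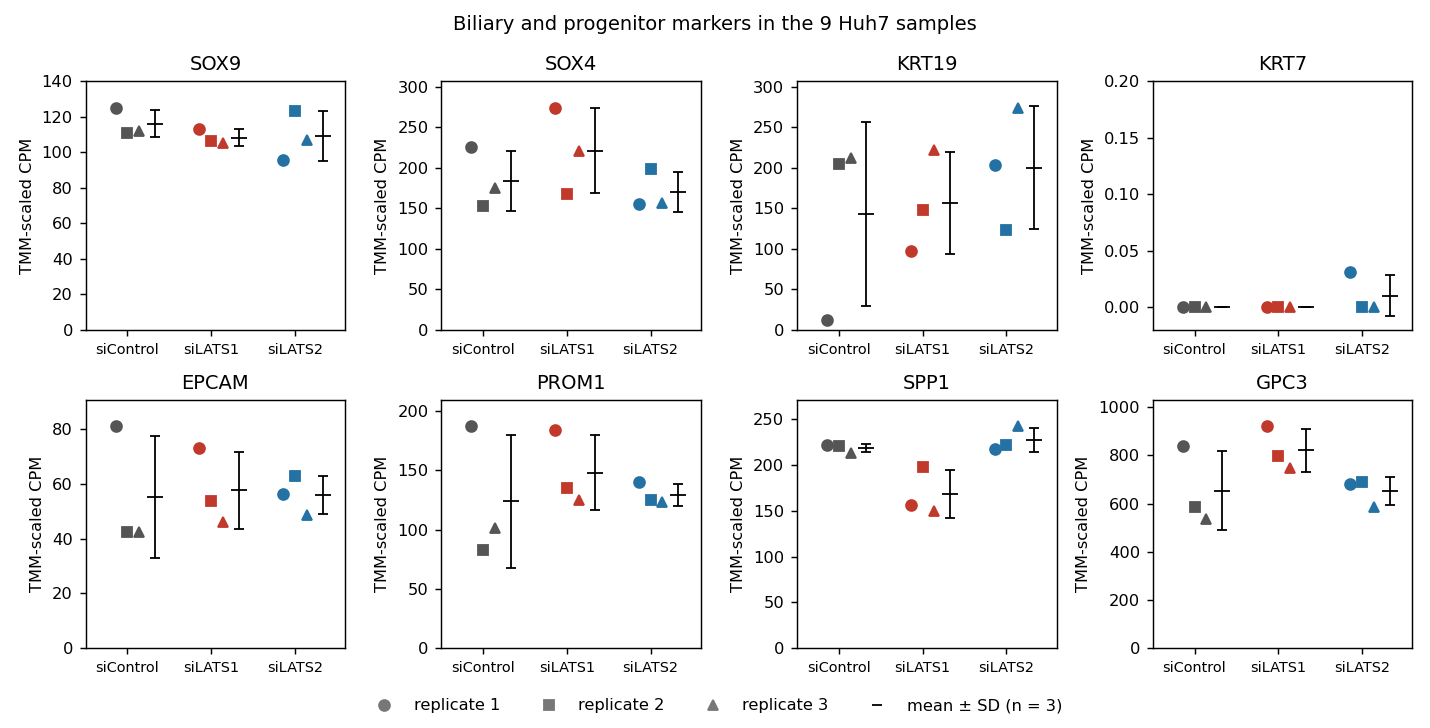
Expression of the 8 members in each sample, as TMM-scaled CPM on linear axes that differ in range, by siRNA group (colour) and replicate (symbol), with the mean ± SD of 3 samples in black. KRT19 in siControl replicate 1 lies far below its other samples, and the siLATS1 points of SPP1 lie below all siControl and siLATS2 points.

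SOX9, the transcription factor that marks the ductal plate and mature bile ducts, was the most even member. Its gene lies on chromosome 17 at 70117161 to 70122557 (GRCh37, plus strand, 3 exons). SOX9 was measured at 125, 111 and 112 CPM in siControl, at 113, 106 and 105 CPM in siLATS1, and at 95.8, 123 and 107 CPM in siLATS2. The highest of the 9 values was 1.3 times the lowest, and the groups overlapped. The log2 fold change on the log2(CPM + 1) scale was -0.10 for siLATS1 against siControl (95% confidence interval -0.41 to 0.21) and also -0.10 for siLATS2 (-0.40 to 0.21).

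SOX4, a related factor that acts with SOX9 in bile duct formation, has a single-exon gene on chromosome 6 at 21593982 to 21598850. SOX4 stood at 225, 153 and 175 CPM in siControl, at 274, 168 and 221 CPM in siLATS1, and at 155, 198 and 157 CPM in siLATS2. The siLATS1 group held the highest value but overlapped with both other groups. Against siControl, the log2 fold change was 0.25 for siLATS1 (-0.25 to 0.76) and -0.10 for siLATS2 (-0.61 to 0.40), and without siControl replicate 1 these values became 0.41 and 0.05. Promoter windows of RefSeq (GRCh38.p14, from 250 bases before to 50 after the start of the gene) were at hand for SOX4, SPP1 and PROM1, and the letters GGAATG, a core to which TEAD factors are known to bind, were found on either strand in the window of SOX4 and not in the others, while 14.0% of 27305 windows of this length held them.

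KRT19, a keratin of bile duct epithelium and a clinical marker of progenitor-type hepatocellular carcinoma, varied most. The gene lies on chromosome 17 at 39679869 to 39684560 (minus strand, 6 exons). KRT19 was at 12.5 CPM in siControl replicate 1 but at 205 and 212 CPM in replicates 2 and 3, at 97.3, 148 and 222 CPM in siLATS1, and at 203, 123 and 274 CPM in siLATS2. The 9 values spanned 21.9-fold, and the spread lay within the groups. KRT19 differed by a log2 fold change of 0.82 for siLATS1 (-1.42 to 3.06) and 1.19 for siLATS2 (-1.06 to 3.43), and without siControl replicate 1 these values became -0.50 and -0.13. No direction can be given for KRT19 after either siRNA.

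KRT7, the other biliary keratin, gave 0 reads in 8 of the 9 libraries and 1 read in siLATS2 replicate 1, which amounts to 0.0311 CPM. A count of 0 allows up to 3 reads, or 0.0932 to 0.127 CPM depending on the library, and these limits cover counting error only. KRT7 (chromosome 12, 52627027 to 52642705) was at or under this floor in all 9 libraries, and no fold change was computed for it.

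EPCAM, an adhesion molecule of ductal and progenitor cells, was measured at 80.9, 42.5 and 42.3 CPM in siControl, at 73, 53.8 and 45.9 CPM in siLATS1, and at 56.2, 62.6 and 48.6 CPM in siLATS2 (chromosome 2, 47596450 to 47614159). In siControl the values of replicates 2 and 3 were nearly equal and the lowest of all 9, while replicate 1 was the highest. The log2 fold change was 0.10 for siLATS1 (-0.55 to 0.75) and 0.08 for siLATS2 (-0.57 to 0.73). Without siControl replicate 1 it was 0.41 and 0.38, with adjusted p-values of 0.438 and 0.987 in limma.

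PROM1, which encodes the stem cell surface marker CD133, showed the same arrangement (chromosome 4, 15969851 to 16085646, minus strand). PROM1 was at 187, 82.6 and 101 CPM in siControl, at 184, 135 and 125 CPM in siLATS1, and at 140, 125 and 123 CPM in siLATS2. Replicates 2 and 3 of siControl lay below the 6 knockdown samples, and replicate 1 above them. PROM1 had a log2 fold change of 0.33 for siLATS1 (-0.35 to 1.0) and 0.15 for siLATS2 (-0.52 to 0.82), and without siControl replicate 1 it was 0.67 and 0.50, with adjusted p-values of 0.207 and 0.987.

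SPP1 encodes osteopontin, a secreted matrix protein that is made by cholangiocytes and raised in many hepatocellular carcinomas (chromosome 4, 88896866 to 88904563, plus strand). SPP1 stood at 221, 220 and 213 CPM in siControl, at 156, 198 and 150 CPM in siLATS1, and at 217, 222 and 242 CPM in siLATS2. All 3 siLATS1 values lay below all 6 values of the other groups, whose ranges overlapped with each other. The log2 fold change of siLATS1 was -0.39 against siControl (-0.70 to -0.07, exact two-sided permutation p = 0.1) and -0.44 against siLATS2 (-0.75 to -0.13, exact permutation p = 0.1), where 0.1 is the smallest p that 3 against 3 samples allow. Adjusted over all tested genes in limma, p was 0.659 and 0.739, so that SPP1 did not pass. The value against siControl was -0.38 without siControl replicate 1, and siLATS2 against siControl gave 0.06 (-0.25 to 0.37).

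GPC3, a cell surface proteoglycan of fetal liver that is used as a diagnostic marker of hepatocellular carcinoma, lies on the X chromosome at 132669773 to 133119621 (minus strand). GPC3 was at 840, 588 and 535 CPM in siControl, at 921, 796 and 749 CPM in siLATS1, and at 682, 690 and 587 CPM in siLATS2. Every siLATS1 value exceeded every siLATS2 value, and siControl overlapped with both, since its replicate 1 at 840 CPM lay within the siLATS1 range and its replicate 2 at 588 CPM within the siLATS2 range. The log2 fold change of siLATS1 was 0.35 against siControl (-0.07 to 0.78, adjusted p = 0.979) and 0.33 against siLATS2 (-0.10 to 0.75, adjusted p = 1.0), while siLATS2 against siControl gave 0.02 (-0.40 to 0.45). Without siControl replicate 1 the values against siControl were 0.54 for siLATS1 and 0.21 for siLATS2.

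**Figure D2:**
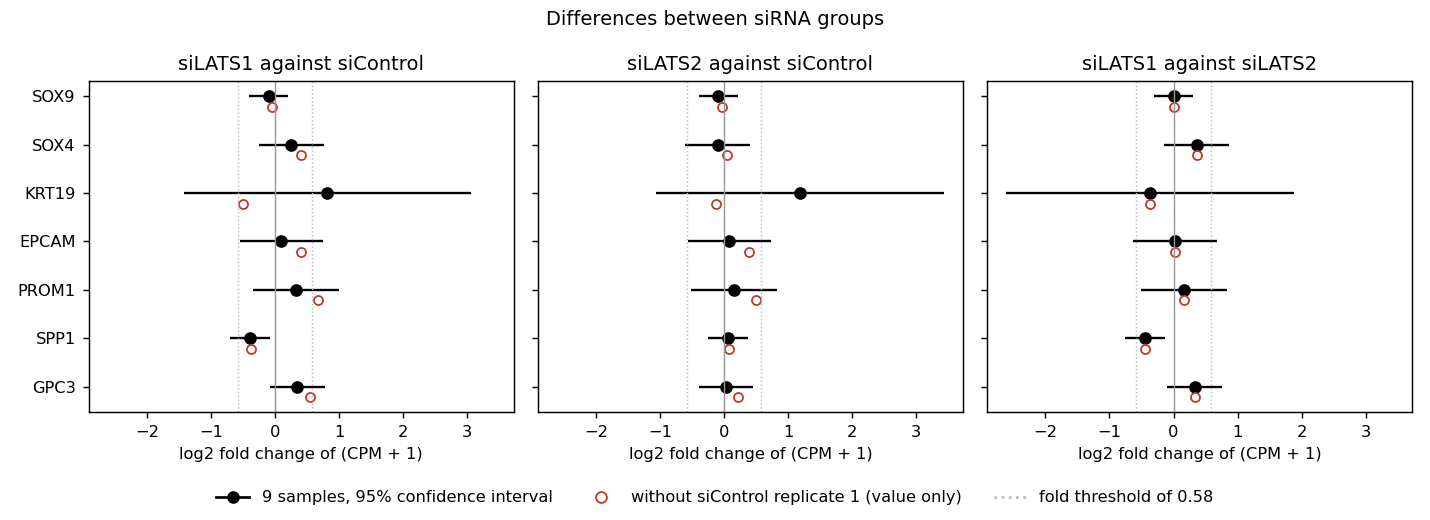
Log2 fold changes of the 7 tested members in the 3 comparisons, from the limma fit on log2(CPM + 1) over 9 samples (black, 95% confidence interval) and with siControl replicate 1 left out (open red circles); dotted lines mark the fold threshold of 0.58. The intervals of SPP1 lie below 0 in both comparisons of siLATS1, and KRT19 has the widest intervals.

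The comparisons asked what the loss of either kinase changed in these cells. As a group, the members showed no difference that passed the test after loss of LATS1. LATS1 itself, at -1.78, missed an adjusted p of 0.05 in the same limma fit (adjusted p = 0.126). A count of 0 members at that level therefore does not show that they were unchanged. With an adjusted p under 0.05 in limma, 0 of 7 members were called between siLATS1 and siControl, against 0.101% of all tested genes. At the threshold of the study's methods, an unadjusted p under 0.05 with an absolute log2 fold change of at least 0.58, it was again 0 of 7 against 2.91%. At the unadjusted p alone 1 member passed, SPP1, against 5.78% of all genes, and SPP1 was also the only member whose groups did not overlap, against 8.48%. The log2 fold change was above 0 for 5 members and below 0 for 2, with a median of 0.25 beside 0.02 over all tested genes. Without siControl replicate 1, 4 members lay above 0 and 3 below, with a median of 0.41, and with edgeR the median was 0.06 beside -0.08 over all genes.

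After loss of LATS2 no member passed the test either. Of the 7 members, 0 were called at the adjusted p in limma, against 0.0% of all genes, 0 at the study's threshold against 0.271%, 0 at the unadjusted p alone against 0.853%, and 0 were without overlap against 3.51%. Again 5 members lay above 0 and 2 below, with a median log2 fold change of 0.06 beside 0.03 over all genes. The value furthest from 0 was that of KRT19, 1.19, which was -0.13 without siControl replicate 1. This comparison and the one before share the siControl samples.

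The knockdowns were also compared with each other, a difference that does not involve the siControl levels. The limma p-values of this comparison do involve them, since the spread was estimated over all 9 samples. Between siLATS1 and siLATS2, 0 of 7 members passed at the adjusted p (0.0% of all genes) or at the study's threshold (1.86%), and 1 passed at the unadjusted p alone (3.91%). Groups did not overlap for 2 members, SPP1, lower in siLATS1, and GPC3, higher in siLATS1, against 12.4% of all genes. The median log2 fold change was 0.03 beside -0.03 over all genes. In all 3 comparisons the adjusted counts were also 0 with edgeR and with DESeq2 on the recovered reads.

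A shared order ran through the members inside each group. The sample with the least KRT19 was replicate 1 of siControl, replicate 1 of siLATS1 and replicate 2 of siLATS2. In the same samples 6, 5 and 4 of the 6 other tested members had their highest value of the group, and SOX9, SOX4, EPCAM and GPC3 did so in all 3 groups. How many of all tested genes peaked in these samples was not counted, so the counts do not show an order particular to the members. KRT8 and KRT18, the keratins shared by hepatocytes and bile duct cells, followed KRT19 and were lowest in these samples in all 3 groups. The difference was largest in siControl, where KRT19 was 16.7-fold, KRT8 6.57-fold and KRT18 2.97-fold lower in replicate 1 than the mean of replicates 2 and 3. In that sample PROM1 was 2.04-fold, EPCAM 1.91-fold, GPC3 1.49-fold and SOX4 1.37-fold higher, whereas SOX9 and SPP1 departed by only 0.16 and 0.03 on the log2 scale.

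The base composition of the transcripts moved with this order for most of these genes. The GC content was 61.8% for KRT19, 59.3% for KRT8 and 58.2% for KRT18, against 52.5% for SOX4, 51.1% for SOX9, 47.2% for GPC3, 44.3% for EPCAM, 42.5% for PROM1 and 41.1% for SPP1. Over all 11693 tested genes with a reference transcript (90.6% of those tested), divided into 5 equal groups by GC content, the median log2 difference of siControl replicate 1 from replicates 2 and 3 was 0.89, 0.62, 0.14, -0.73 and -2.01 from the lowest to the highest GC. KRT19, at -3.96, lay beyond the median of its own GC group, and SPP1, at 0.03, lay below that of its group. SOX4 and SOX9, at 0.46 and 0.16, lay above 0 although the median of their GC group was -0.73.

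**Figure D3:**
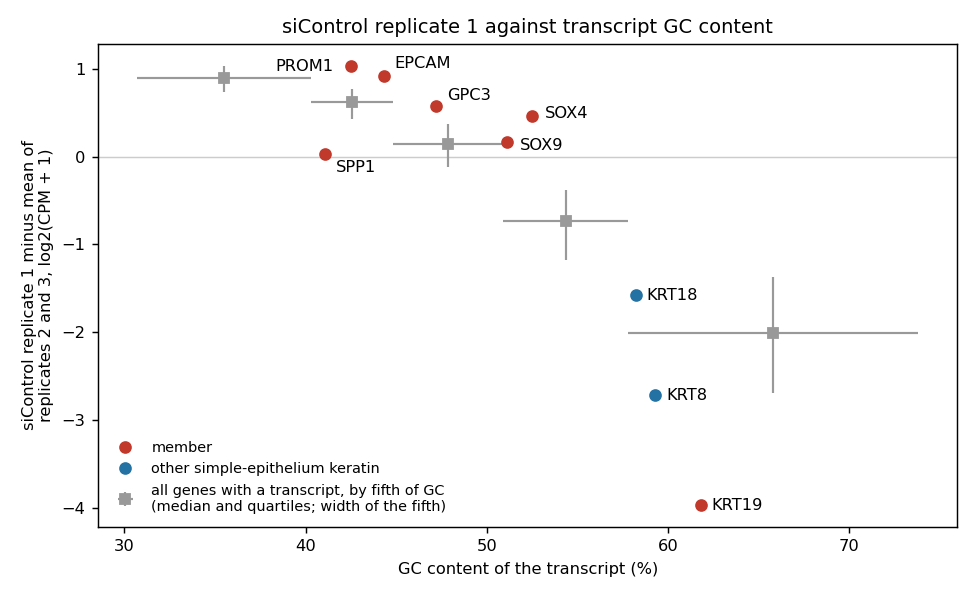
Log2 difference of siControl replicate 1 from the mean of replicates 2 and 3 against transcript GC content, for 7 members (red), KRT8 and KRT18 (blue) and all genes in 5 equal groups by GC content (grey squares, median and quartiles; horizontal lines span each group). Low-GC members lie above 0, KRT19 at 61.8% GC lies at -3.96, and the genes as a whole fall from 0.89 to -2.01.

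The same balance differed between samples of every group. As a measure per sample, the median deviation from the mean over the 9 samples was taken for genes of the highest and of the lowest GC group, and the latter was subtracted from the former. This GC balance was -2.29, 0.71 and 0.54 in siControl, -0.56, -0.02 and 0.93 in siLATS1, and 0.43, -0.42 and 0.72 in siLATS2. The 3 samples with the least KRT19 in their groups were also the lowest in GC balance, and EPCAM was highest in each of them, whereas the uncorrected SPP1 values of siLATS1 lay below the rest at low and at high GC balance alike. What set the GC balance was not tested.

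**Figure D4:**
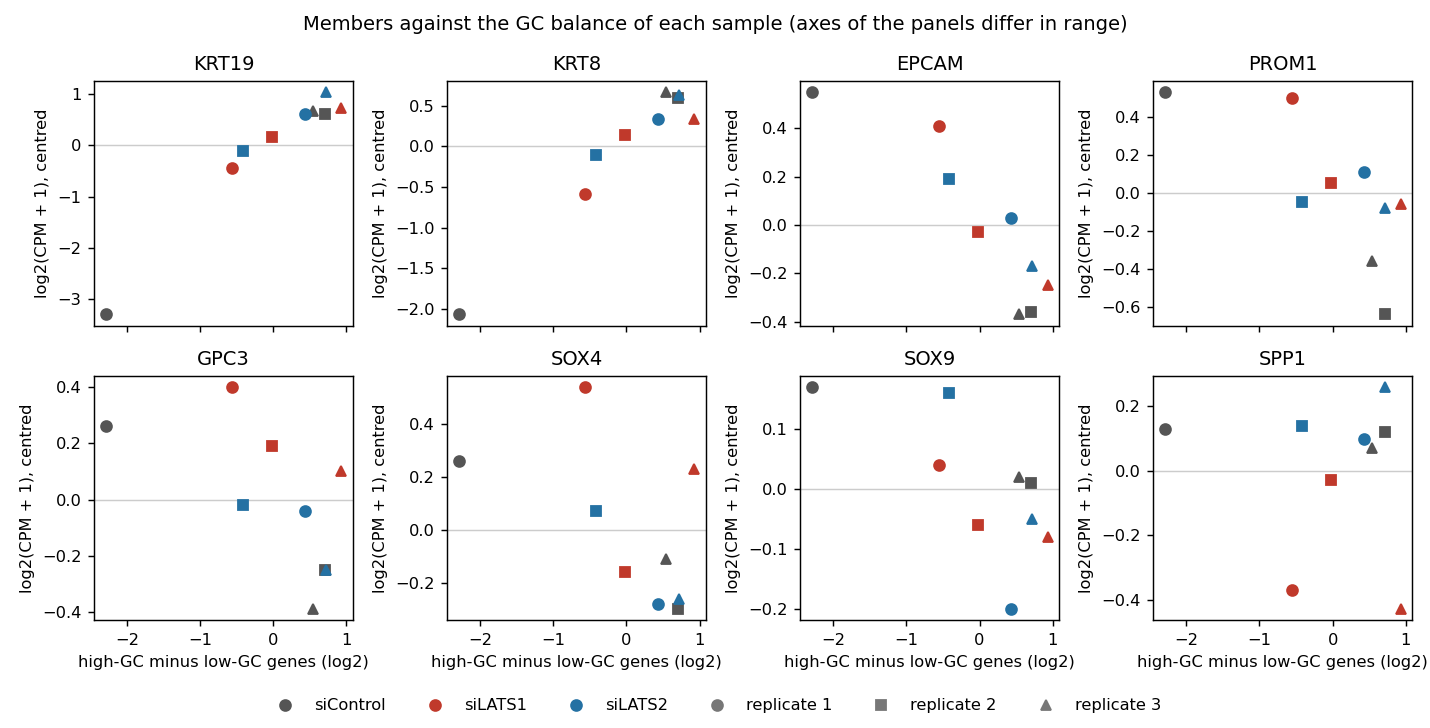
Centred log2(CPM + 1) of 7 members and KRT8 against the GC balance of the sample (high-GC minus low-GC genes, log2), for the 9 samples, with groups in colours and replicates as symbols. KRT19 and KRT8 are lowest at the GC balance of -2.29 of siControl replicate 1, EPCAM is highest there, and the siLATS1 values of SPP1 lie below the others across the range.

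The members were therefore also fitted after removal of the GC trend, a setting chosen after seeing the data. In each sample, the median deviation from the gene means was subtracted within 20 bins of GC content. Pearson's r of siControl replicate 1 with the other siControl replicates then reached 0.964 and 0.965, and LATS1 differed by -1.63 on the log2 scale between siLATS1 and siControl with an adjusted p of 0.000131 in limma. KRT19 became 46.7, 147 and 146 CPM in siControl, 127, 146 and 144 CPM in siLATS1, and 166, 142 and 190 CPM in siLATS2, so that siControl replicate 1 remained the lowest of the 9.

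With the GC trend removed and all 9 samples kept, 0 of 7 members passed the adjusted p in limma for siLATS1 against siControl (2.33% of all genes did) or against siLATS2 (1.06%). GPC3 differed by 0.38 and 0.37 in these comparisons, with adjusted p-values of 0.131 and 0.183, and PROM1 by 0.39 against siControl (adjusted p = 0.246). SPP1 shifted from -0.39 to -0.26 against siControl (adjusted p = 0.577), since its corrected values in siControl were 148, 254 and 230 CPM and its replicate 1 then lay within the siLATS1 values of 140, 193 and 183 CPM. SPP1 in siLATS2, at 232, 195 and 278 CPM, still lay above all siLATS1 values. The correction also moved siControl replicate 1 of SOX4 and SOX9 further from its group, to 285 CPM against 139 and 173 CPM for SOX4 and to 158 CPM against 101 and 111 CPM for SOX9.

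At the adjusted p, GPC3 and PROM1 passed only with siControl replicate 1 left out and the GC trend removed, not with either step alone. The GC trend was removed over all 9 samples first, so siControl replicate 1 still entered the gene means behind the corrected values. With this sample then left out of the fit, 2 of 7 members passed the adjusted p in limma for siLATS1 against siControl, against 6.79% of all genes. These were GPC3 at 0.51 (0.31 to 0.71, adjusted p = 0.0114) and PROM1 at 0.55 (0.26 to 0.85, adjusted p = 0.0376), both higher in siLATS1. Between siLATS1 and siLATS2, GPC3 passed at 0.37 (adjusted p = 0.0349), 1 of 7 members against 3.49% of all genes. With siControl replicate 1 kept, this value was also 0.37 (adjusted p = 0.183 in limma). Leaving that sample out changed the shared estimate of the spread and not the difference between the knockdowns. SPP1 was -0.50 against siControl (adjusted p = 0.0873) and KRT19 -0.07. Without the sample and with no GC correction, 1 of 7 members, PROM1, passed the study's threshold, against 5.45% of all genes. In that fit the adjusted p in limma for siLATS1 against siControl was 0.169 for GPC3 and 0.207 for PROM1, and neither passed. GPC3 was thus higher in siLATS1 than in siLATS2 by 0.33 to 0.37 in these fits, but the call depended on the setting.

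Further genes of the biliary and progenitor program came from a list of 40 genes, of which 39 were in the files and 29 were tested. The 10 below the level for testing included the ductal transport and mucin genes CFTR (0.201 to 1.01 CPM), AQP1 (0 to 0.286 CPM), SCTR (0 to 0.281 CPM) and MUC1 (0.307 to 1.2 CPM). Oncofetal and progenitor genes were present, with LIN28B at 147 to 434 CPM, IGF2BP1 at 352 to 437 CPM and PEG10 at 855 to 1340 CPM, and so was the Notch ligand JAG1 at 670 to 811 CPM. In siLATS1 against siControl, 2 of the 29 were higher and 1 lower at the study's threshold, against 2.91% of all tested genes, 0 were called at the adjusted p in limma, and the median was 0.05. Without siControl replicate 1, 3 were higher and 2 lower, against 5.45% of all genes. The same 3 genes passed the study's threshold between siLATS1 and siLATS2, against 1.86% of all genes and with a median of 0.04, and 0 passed in siLATS2 against siControl, against 0.271% and with a median of -0.01. CD44 is 1 of these 3. It reached the level for testing only through its siLATS1 values, so its place in these counts is no support.

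KRT23, a keratin that is raised in injured liver, stood at 30.6, 29.3 and 27.4 CPM in siControl, at 14.7, 14.9 and 9.4 CPM in siLATS1, and at 27.7, 26 and 21.8 CPM in siLATS2. Its siLATS1 samples lay below all others, by -1.13 on the log2 scale against siControl (adjusted p = 0.13 in limma, and 0.0154 with the GC trend removed). ONECUT1, a factor that acts upstream in biliary development, was at 17.4, 17.7 and 16.3 CPM in siControl, at 26.8, 19.8 and 33.6 CPM in siLATS1, and at 17.1, 13.5 and 17.6 CPM in siLATS2, with a log2 fold change of 0.59 against siControl (adjusted p = 0.696). CD44, a hyaluronan receptor of progenitor and mesenchymal cells, was at 0.0439, 0.603 and 0.295 CPM in siControl, at 1.85, 12.3 and 1.33 CPM in siLATS1, and at 0.124, 0.401 and 0.215 CPM in siLATS2. CD44 was higher in all 3 siLATS1 samples at low levels, with 1 sample far above the rest and a log2 fold change of 1.78 (adjusted p = 0.586). Only its siLATS1 values reached 1 CPM, so CD44 was tested only through the group where it is high. Its passing of the study's threshold is therefore no support for a change.

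For each tested member, the gene whose log2(CPM + 1) followed it most closely over the 9 samples was found by Pearson's r among 12900 other genes. This gene was LINC01140 for SOX9 (r = 0.941), SPTLC2 for SOX4 (0.971), TEX264 for KRT19 (0.999), GCOM1 for EPCAM (0.984), HACE1 for PROM1 (0.974), LAYN for SPP1 (0.958) and BBS4 for GPC3 (0.982). All points share the libraries and their GC balance, and with siControl replicate 1 left out TEX264 had an r of 0.99 with KRT19. TEX264, a receptor for autophagy of the endoplasmic reticulum, ran from 2.72 to 26.3 CPM, LINC01140 from 0.963 to 1.71 CPM and LAYN from 7.51 to 20 CPM, and GCOM1 overlaps its neighbouring genes, so that its reads are uncertain.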

How the data were processed

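The authors mapped reads with STAR to hg19 (GRCh37), counted unique hits over RefSeq exons and deposited CPM, reads relative to all reads counted, 1 value per gene and sample. All values were whole multiples of 1 read's worth within 0.02 reads, so reads were recovered. The labels name ribosomal RNA depletion, the study's methods poly-A+ RNA. 1 entry without an identifier was left out. CPM were TMM-scaled (factors 0.957 to 1.057), filtered at 1 CPM in 3 samples, and log2(CPM + 1) was fitted with limma 3.58.1 (trend, Benjamini-Hochberg over 12901 genes). This fold change understates changes of low genes. The fit was also run on simulated data with larger changes than those of the members, which does not show how well small changes are found. Alternatives were edgeR 4.0.16, DESeq2 1.42.0, other scalings, pseudocounts and filters, a replicate block, leaving out each sample, and GC trend removal over 11693 genes with a MANE Select transcript (GENCODE 44, GRCh37). Symbols matched 20470 genes. Named were the 9 members, the targeted genes, list genes past the study's threshold and the closest gene by r. Beyond that rule, KRT8 and KRT18, the seed matches, GC content and further list levels were chosen after values were seen. The members and lists were chosen with earlier results of these data known. Exact permutation tests used scipy 1.17.1.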

Additional observations from a re-analysis of the deposited data

How the results depend on the processing

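Over 20 alternative settings, 10 of 21 log2 fold changes of members kept their sign, and 36 of 420 values reversed. The number of members called at the adjusted p was 0 in every setting but 1. That setting removed the GC trend over all 9 samples and then left out siControl replicate 1, a combination chosen after seeing the data. The number there was 2 for siLATS1 against siControl and 1 for siLATS1 against siLATS2. At the study's threshold it ranged from 0 to 1 for siLATS1 against siControl when samples were left out, being 1 without siControl replicate 1 (PROM1), and was 1 with edgeR without that sample. The reversed values for siLATS1 against siControl were 0.02 for SOX9 and -0.07 for KRT19 with the GC trend removed without siControl replicate 1, and -0.42 for KRT19 with edgeR without it. For siLATS2 against siControl they were 0.05 for SOX4 and -0.05 for SPP1 with the GC trend removed without that sample, 0.03 for SOX4 and -0.08 for KRT19 with edgeR without it, -0.01 for EPCAM and -0.03 for GPC3 with edgeR, and -0.0035 and -0.01 for GPC3 with DESeq2 size factors and DESeq2. For siLATS1 against siLATS2, SOX9 was 0.07 without TMM scaling (exact permutation p = 0.5), 0.0028 with DESeq2 size factors, 0.01 with DESeq2 and with edgeR without siControl replicate 1, and 0.06 with the GC trend removed, with or without that sample. Leaving out 1 sample in turn gave ranges across 0. They were -0.50 to 1.49 for KRT19 and -0.08 to 0.41 for EPCAM in siLATS1 against siControl. In siLATS2 against siControl they were -0.23 to 0.05 for SOX4, -0.13 to 1.86 for KRT19, -0.08 to 0.38 for EPCAM, -0.09 to 0.50 for PROM1 and -0.11 to 0.21 for GPC3. Between the knockdowns they were -0.09 to 0.09 for SOX9 and -0.16 to 0.17 for EPCAM. The cause of these shifts was not tested.

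Samples with the same replicate number correlated at -0.87 to 0.92 in their deviations from the group means, over 0.1 in 5 of 9 pairs, so the numbers were not taken as a pairing. With the replicate number as a block, 0 members were called in each comparison, as without it, and SPP1 in siLATS1 against siControl had an adjusted p of 0.649. With 3 samples a group and this spread, the interval for KRT19 covers changes of several fold either way, and depth limits only KRT7.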
